A study of Homo sapiens with 12 samples.

Results

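The mitochondrial ribosomal protein genes were taken as all rows of the expression table whose symbol is MRPL or MRPS followed by a number and, in some cases, one letter A to C. There were 77 such genes among 26475 symbols, 48 with large subunit names (MRPL) and 29 with small subunit names (MRPS). RNA-seq was carried out on 2 human ovarian cancer cell lines, PA-1, a teratocarcinoma line, and SK-OV-3, an adenocarcinoma line. Cells of each line received either the vehicle DMSO or BAY-850 (5 µM) over 48 h, with 3 biological replicates in each of the 4 groups. BAY-850 is a small molecule inhibitor of ATAD2, a chromatin-bound ATPase with a bromodomain that reads acetylated histones. PA-1 was cultured in DMEM and SK-OV-3 in RPMI, both with fetal bovine serum, so the line and its medium cannot be told apart. Each line stands for 1 culture model, and no group without ATAD2 was analysed here. The comparisons address how the transcripts of the mitochondrial ribosome differ after ATAD2 inhibition in each line, and between the lines under DMSO.

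The mitochondrial ribosome translates the few proteins that mitochondrial DNA encodes, which are core subunits of the respiratory chain and the ATP synthase. Its RNAs come from mitochondrial DNA, whereas its proteins are encoded in the nucleus, made in the cytosol and imported, so both genomes must supply each particle. The small subunit binds the mRNA and decodes it, and the large subunit joins amino acids and passes the chain to the inner membrane. In current ribosome nomenclature a u or b before the protein number marks a family shared with bacterial ribosomes, and an m marks a protein specific to mitochondria; 46 members were of shared families and 31 were not. In the solved structures MRPS18A (mL66) and MRPS30 (mL65) sit in the large subunit despite their names, and MRPS36 is now assigned to the 2-oxoglutarate dehydrogenase complex.

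All 12 libraries were deep enough to measure every member. The total of estimated counts was between 34544505 and 51840233 per library, the lowest estimated count of any member in any library was 329 (MRPS17), and all 77 members were tested in every comparison. The SK-OV-3 BAY-850 replicate 3 library had a count in 15629 genes, against 17425 to 18414 in the others. Ribosomal RNA genes took 7.942 to 16.87% of the counts. The PA-1 libraries expressed the embryonal genes LIN28A at 705 to 860 CPM (counts scaled to library size by TMM) and POU5F1 at 368 to 467 CPM, while DPPA4 was at 0.976 to 2.43 CPM. The SK-OV-3 libraries expressed the epithelial genes ERBB2 at 1540 to 2620 CPM and KRT7 at 375 to 476 CPM. KRT19 (327 to 558 CPM) and EPCAM (18.2 to 40.8 CPM) were also higher there than in PA-1. The other epithelial genes chosen, KRT8 and KRT18, were not particular to SK-OV-3. KRT8 was at 395 to 618 CPM in SK-OV-3 and 504 to 595 CPM in PA-1. KRT18 was lower in SK-OV-3 (230 to 281 CPM) than in PA-1 (325 to 363 CPM). Of 8 genes chosen as markers of other cells, the leukocyte gene PTPRC did not exceed 0.0984 CPM and the fibroblast gene DCN 0.0485 CPM in any library, whereas COL1A1 was at 82.1 to 613 CPM over both lines and PECAM1 at 22.9 to 26.2 CPM in PA-1.

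The promoters of the members carried the letters of motifs known from genes for mitochondrial proteins. NRF1 and the ETS factor GABP (NRF2) activate many nuclear genes whose products work in mitochondria, and YY1 is often found near the start sites of such genes. RefSeq windows (GRCh38.p14, 250 bases before to 50 after a start site) were present for 68 of the 77 members, 84 windows in all, and the same windows for 27305 genes (35116 windows) served as the background. The ETS core CCGGAAG was found on either strand in 32 of the members' windows (38.1%), against 10.3% of all windows. The YY1 core AAGATGG was in 27 (32.1%), against 5.84%, and the NRF1 core GCATGCGC was in 6 (7.14%), against 3.05%. At least 1 of the 3 was in 49 windows (58.3%), against 17.6% of all. ETS matches were in 35.3% of the MRPL windows and 42.4% of the MRPS windows, and YY1 matches in 33.3% and 30.3%. The background windows were not limited to genes expressed in these cells, while all members were. A difference from other expressed genes was not tested. These are matches of letters, not measured binding.

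The 120 bases before the RefSeq start site are shown for 8 members, to set beside their responses to BAY-850. They include the member with the best support for a lower level in both lines (MRPL1) and for a higher level in both (MRPS26, called in neither), each ranked by the larger of its 2 p-values. The 6 members whose responses differed between the lines (MRPL33, MRPS10, MRPL17, MRPS18B, MRPS6 and MRPL24) were added after the values were seen. The capitals mark motif matches, and the positions are MRPL1 chr4:77862710-77862829 (plus strand), MRPS26 chr20:3045932-3046051 (plus), MRPL33 chr2:27771599-27771718 (plus), MRPS10 chr6:42217862-42217981 (minus), MRPL17 chr11:6683341-6683460 (minus), MRPS18B chr6:30617720-30617839 (plus), MRPS6 chr21:34073458-34073577 (plus) and MRPL24 chr1:156741089-156741208 (minus).
MRPL1: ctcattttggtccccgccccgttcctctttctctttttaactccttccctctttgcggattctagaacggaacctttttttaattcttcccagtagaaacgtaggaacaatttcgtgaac
MRPS26: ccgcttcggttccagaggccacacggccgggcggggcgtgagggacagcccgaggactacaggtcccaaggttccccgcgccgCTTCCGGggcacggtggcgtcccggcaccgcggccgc
MRPL33: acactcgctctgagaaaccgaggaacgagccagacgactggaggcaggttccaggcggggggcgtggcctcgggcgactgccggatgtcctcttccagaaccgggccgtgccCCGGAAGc
MRPS10: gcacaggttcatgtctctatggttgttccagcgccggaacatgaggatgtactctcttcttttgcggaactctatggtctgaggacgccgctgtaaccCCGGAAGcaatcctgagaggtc
MRPL17: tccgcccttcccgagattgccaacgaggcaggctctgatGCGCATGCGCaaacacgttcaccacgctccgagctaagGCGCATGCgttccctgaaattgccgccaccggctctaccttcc
MRPS18B: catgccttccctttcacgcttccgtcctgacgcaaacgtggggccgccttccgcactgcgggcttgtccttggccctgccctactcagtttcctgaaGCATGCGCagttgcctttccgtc
MRPS6: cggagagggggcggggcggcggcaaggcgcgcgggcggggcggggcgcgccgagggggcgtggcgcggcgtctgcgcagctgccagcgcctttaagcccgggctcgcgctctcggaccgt
MRPL24: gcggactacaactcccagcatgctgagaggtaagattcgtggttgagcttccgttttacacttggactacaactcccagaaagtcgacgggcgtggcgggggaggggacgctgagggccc
None of the 3 motifs was in the windows of MRPL1, MRPS6 and MRPL24. The gene annotation used here places the outermost starts of these genes further upstream. They are at chr4:77862520 for MRPL1, chr21:34073224 for MRPS6 and chr1:156741590 for MRPL24 (minus strand). The windows of these genes thus lie inside the annotated genes. They do not reach the bases before the outermost starts, so motifs there were not tested. MRPS26 held the ETS core at position -37 from the start site, MRPL33 at -8 and MRPS10 at -22, and MRPS10 also held the YY1 core at 10 bases into the transcript. MRPL17 held the NRF1 core in 2 stretches, the first a palindrome read on both strands at -81 and -79 and the second at -43, and MRPS18B held it at -23, with the YY1 core at 24 bases into the transcript.

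The members differed widely in level. Over the 12 libraries the mean level per kb of transcript had a median of 32.3 CPM per kb for the MRPL genes and 34.8 for the MRPS genes. Among the MRPL genes it was highest for MRPL33 (bL33m) at 116 CPM per kb, MRPL12 (bL12m, the stalk protein that recruits translation factors) at 87.4 and MRPL20 (bL20m) at 79.3. It was lowest for MRPL42 at 5.96, MRPL50 at 6.68 and MRPL57 at 11.1 CPM per kb. Among the MRPS genes MRPS6 (bS6m) at 114, MRPS18C (bS18m) at 79.8 and MRPS15 (uS15m) at 71.1 CPM per kb were the highest, and MRPS17 (uS17m) at 5.83, MRPS25 (mS25) at 6.06 and MRPS11 (uS11m) at 9.71 the lowest. The order differed between the lines: in the PA-1 DMSO group MRPL3 (97.8 CPM per kb) and MRPL28 (79.3) lay above MRPL12 (74.8) and MRPL20 (62.8), and MRPS24 (90.2) lay above MRPS18C (85.5) and MRPS15 (50.3). These levels depend on the transcript length used, which was 15582 bases for MRPL42. Per gene, without the length, MRPL42 was at 92.9 CPM over the 12 libraries. The counts of MRPS6, MRPS18C and MRPL20 were not whole numbers in any library, as happens when reads are shared between genes, and MRPS6 overlaps SLC5A3 on the same strand, so their levels are uncertain. Those of MRPS25 and MRPL57 were not whole in 91.67% and 83.33% of the libraries.

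In PA-1 the members were slightly lower after BAY-850 than under DMSO, and 5 passed the test, all lower. A member was called where the p-value of edgeR's quasi-likelihood test, adjusted over all genes tested by the Benjamini-Hochberg method, was under 0.05. In such bulk samples less RNA per cell and fewer cells of a kind cannot be told apart. The median log2 fold change was -0.11 for the 77 members, against -0.0019 for the 15212 genes tested, and 58 of the 77 (75.3%) were negative, against 50.4% of all genes. The 5 called members, MRPL1, MRPL33, MRPL35, MRPL13 and MRPS10, were 6.49% of the members, against 2.48% of all genes called lower. No member was called higher, against 4.65% of all genes, by edgeR's quasi-likelihood test or limma-voom, while DESeq2 and edgeR's likelihood ratio test each called 1 higher, and 1 was higher at an unadjusted p under 0.05. At that unadjusted level 25 members were lower. The share of all genes at an unadjusted p under 0.05 was not counted, here or for the unadjusted counts given below, so these counts have no background. The levels of 25 members lay lower in every BAY-850 library than in every DMSO library (13.3% of all genes did) and those of 2 members lay higher in every one (14.1% of all genes). The MRPL and MRPS genes had similar medians of -0.11 and -0.11, with 4 and 1 called. All 5 called members belong to families shared with bacterial ribosomes (5 of 46), and 0 of the 31 others were called lower by any of the 4 tools, though 10 of those were lower at an unadjusted p under 0.05. The 2 origin groups were not tested against each other, and with the length trend removed MRPL42 and MRPL50, both of the 31, were among 7 lower calls.

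MRPL1 (uL1m; GRCh38 chr4:77862520-77952790, plus strand) is the protein of the mobile stalk that guides spent tRNA out of the ribosome. It was at 42.3, 38.6 and 36.5 CPM under DMSO and 32.9, 27.1 and 31.6 CPM with BAY-850. Its DMSO and BAY-850 libraries did not overlap. The log2 fold change was -0.36 ± 0.084 (SE, n = 3 in each group; adjusted p = 0.0201). MRPL33 was at 52.4, 42.6 and 40.7 CPM under DMSO and 34.51, 31.7 and 37.4 CPM in the treated libraries, and the log2 fold change was -0.39 ± 0.093 (adjusted p = 0.0225). MRPL33 overlaps BABAM2 on the same strand, and its first DMSO library was the highest of the 6. MRPS10 (uS10m), a protein of the small subunit head, was at 74.2, 72.6 and 69.9 CPM under DMSO and 61.7, 62.6 and 61.9 CPM in the treated libraries, and the log2 fold change was -0.22 ± 0.057 (adjusted p = 0.0341).

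MRPL35 (bL35m) was at 40.9, 39.8 and 40.4 CPM under DMSO in PA-1 and 33.7, 33.5 and 35.0 CPM in the treated libraries, and the log2 fold change was -0.24 ± 0.064 (adjusted p = 0.034). The spread within each group was small against the gap between them. MRPL13 (uL13m) was at 43.0, 44.4 and 42.6 CPM under DMSO and 33.2, 33.7 and 39.7 CPM in the treated libraries, and the log2 fold change was -0.28 ± 0.077 (adjusted p = 0.0386), with BAY-850 replicate 3 nearest to the DMSO libraries. MRPL47 (uL29m), at the exit of the protein tunnel, missed the threshold with a log2 fold change of -0.24 ± 0.071 (adjusted p = 0.0574). On the other side, MRPL17 (bL17m), also at the tunnel exit, was at 57.8, 55.2 and 50.6 CPM under DMSO and 62.8, 61.0 and 70.3 CPM with BAY-850, with a log2 fold change of 0.25 ± 0.072 (adjusted p = 0.0502).

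The PA-1 response of the members ran with GC content, and the calls depended on single libraries, among the members as over all genes. Members of the lowest GC content (35 to 46.1%, n = 26) had a median log2 fold change of -0.20 and held all 5 called members, those in the middle (n = 25) had -0.12 and those of the highest (53.7 to 71.9%, n = 26) had -7e-04. Across the 77 members Spearman's rho with GC content was 0.627, and across 13801 protein-coding genes it was 0.388; genes in the same libraries are not independent, so no p-value is given. With the GC trend of each library removed, 130 of all 14765 genes tested were called lower and 432 higher. In that fit 0 members were called by edgeR's quasi-likelihood test (21 were lower at an unadjusted p under 0.05) and their median was -0.11. The median was -0.053 with the trend on transcript length removed, -0.0645 without DMSO replicate 1 and -0.0632 without BAY-850 replicate 2. Without PA-1 DMSO replicate 1, DMSO replicate 2 or BAY-850 replicate 2, 0 were called (12, 20 and 16 were lower at an unadjusted p under 0.05). Lower calls over all genes numbered 132 of 15541, 65 of 15468 and 71 of 15564 in these fits. With all libraries they were 378 of 15212. Without BAY-850 replicate 1 only MRPL1 was called, against 237 of all 15489 genes lower. Without BAY-850 replicate 3 there were 8, against 418 of all 15467 genes lower. Cytosolic ribosomal protein genes, with a median of -0.10 (84 tested), and nuclear genes for respiratory chain subunits, with -0.10 (76 tested), lay at similar values in the same comparison.

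**Figure D1:**
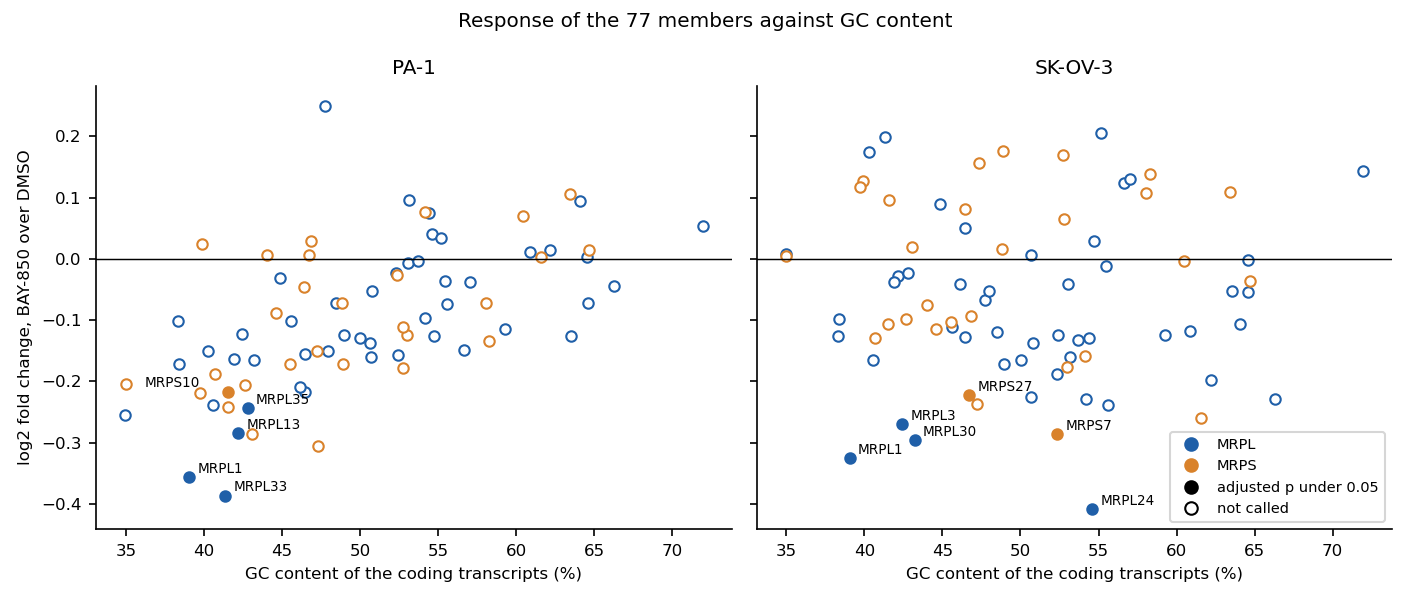
Log2 fold change after BAY-850 (vertical axis) of the 77 members against the GC content of their coding transcripts in % (horizontal axis), in PA-1 (left) and SK-OV-3 (right). Blue points are MRPL genes and orange points MRPS genes, filled where the adjusted p was under 0.05. In PA-1 the points rise from left to right (rho 0.627) and the 5 filled ones lie at the low GC end, whereas in SK-OV-3 no such slope is seen (rho -0.0458).

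In SK-OV-3 6 members passed the test, all lower. The called members were MRPL3, MRPL24, MRPS7, MRPL1, MRPL30 and MRPS27, which were 7.79% of the members, against 9.56% of all genes called lower, so the share was not above the background. No member was called higher, against 10.8% of all genes, by edgeR's quasi-likelihood test, edgeR's likelihood ratio test, limma-voom or DESeq2, and 3 were higher at an unadjusted p under 0.05. The median log2 fold change was -0.08 for the members, against -0.0091 for the 15348 genes tested, and 52 of the 77 (67.5%) were negative, against 51.2%. The MRPL genes had a median of -0.11 with 37 of 48 negative, and the MRPS genes -0.0029 with 15 of 29 negative; 4 (8.33%) and 2 (6.9%) were called lower, and the subunits were not tested against each other. The levels of 20 members lay lower in every BAY-850 library (20.5% of all genes did) and those of 4 lay higher (18.1% of all genes).

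MRPL3 (uL3m; GRCh38 chr3:131462212-131502983, minus strand) reaches toward the peptidyl transferase centre. It was at 117, 111 and 113 CPM under DMSO in SK-OV-3 and 92.3, 96.1 and 92.1 CPM with BAY-850. The 2 groups were well apart, with a log2 fold change of -0.27 ± 0.053 (SE, n = 3 in each group; adjusted p = 0.00442). MRPL24 (uL24m), beside the tunnel exit, was at 43.3, 39.7 and 37.1 CPM under DMSO and 32.1, 30.0 and 27.7 CPM with BAY-850, the widest gap among the called members at a log2 fold change of -0.41 ± 0.085 (adjusted p = 0.00594). MRPS7 (uS7m), which binds the head of the small subunit, was at 95.2, 86.2 and 85 CPM under DMSO and 71.8, 75.1 and 69.9 CPM in the treated libraries, and the log2 fold change was -0.29 ± 0.064 (adjusted p = 0.00874). The counts of MRPS7 were not whole in any library, so part of its reads may be shared with other genes.

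MRPL1 was at 36.6, 36.4 and 36.9 CPM under DMSO in SK-OV-3 and 27.1, 30.6 and 29.2 CPM with BAY-850. Its DMSO libraries were almost identical and all lay above the BAY-850 libraries, with a log2 fold change of -0.33 ± 0.077 (adjusted p = 0.0114). MRPL30 (uL30m) was at 55.6, 51.5 and 53.4 CPM under DMSO and 39.9, 40.7 and 48.7 CPM in the treated libraries, and the log2 fold change was -0.30 ± 0.091 (adjusted p = 0.0399), and its BAY-850 replicate 3 library lay nearest to the DMSO group. MRPS27 (mS27), a pentatricopeptide repeat protein of the small subunit, was the called member with the largest p and is named although it falls outside the rule for named genes. It was at 102, 103 and 92.1 CPM under DMSO and 90.9, 82.4 and 79.6 CPM in the treated libraries, and the log2 fold change was -0.22 ± 0.069 (adjusted p = 0.0412). MRPL3, MRPL24 and MRPS7 were called in all leave-one-out fits, whereas MRPL1, MRPL30 and MRPS27 each lost the call without one or more libraries: MRPL1 without DMSO replicate 2, DMSO replicate 3 or BAY-850 replicate 1 (adjusted p 0.0511 to 0.0545), MRPL30 without any one library but BAY-850 replicate 3 (0.0894 to 0.137), and MRPS27 without DMSO replicate 1, DMSO replicate 2, BAY-850 replicate 2 or BAY-850 replicate 3 (0.0638 to 0.176).

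The SK-OV-3 DMSO replicate 1 library had the highest summed level of the members in this line and moved the median. Without it the members' median was -0.02, 4 members were called lower and 3 higher (MRPL33, MRPS24 and MRPS6), and 9 were higher at an unadjusted p under 0.05. Over all 15678 genes tested in that fit, 1359 were called lower and 1574 higher. Without DMSO replicate 2 the lower calls among the members numbered 3, against 788 of all 15688 genes tested. The GC content of the members did not track their response in SK-OV-3 (rho -0.0458), and with the GC trend removed 9 were called lower, against 1732 of all 14864 genes tested. Removing the trend on transcript length gave 12 lower and 1 higher, against 1798 lower and 1871 higher of all 14864 genes tested. Cytosolic ribosomal protein genes had a median of -0.04 (83 tested, 4 lower) and respiratory chain subunit genes -0.09 (75 tested, 7 lower).

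**Figure D2:**
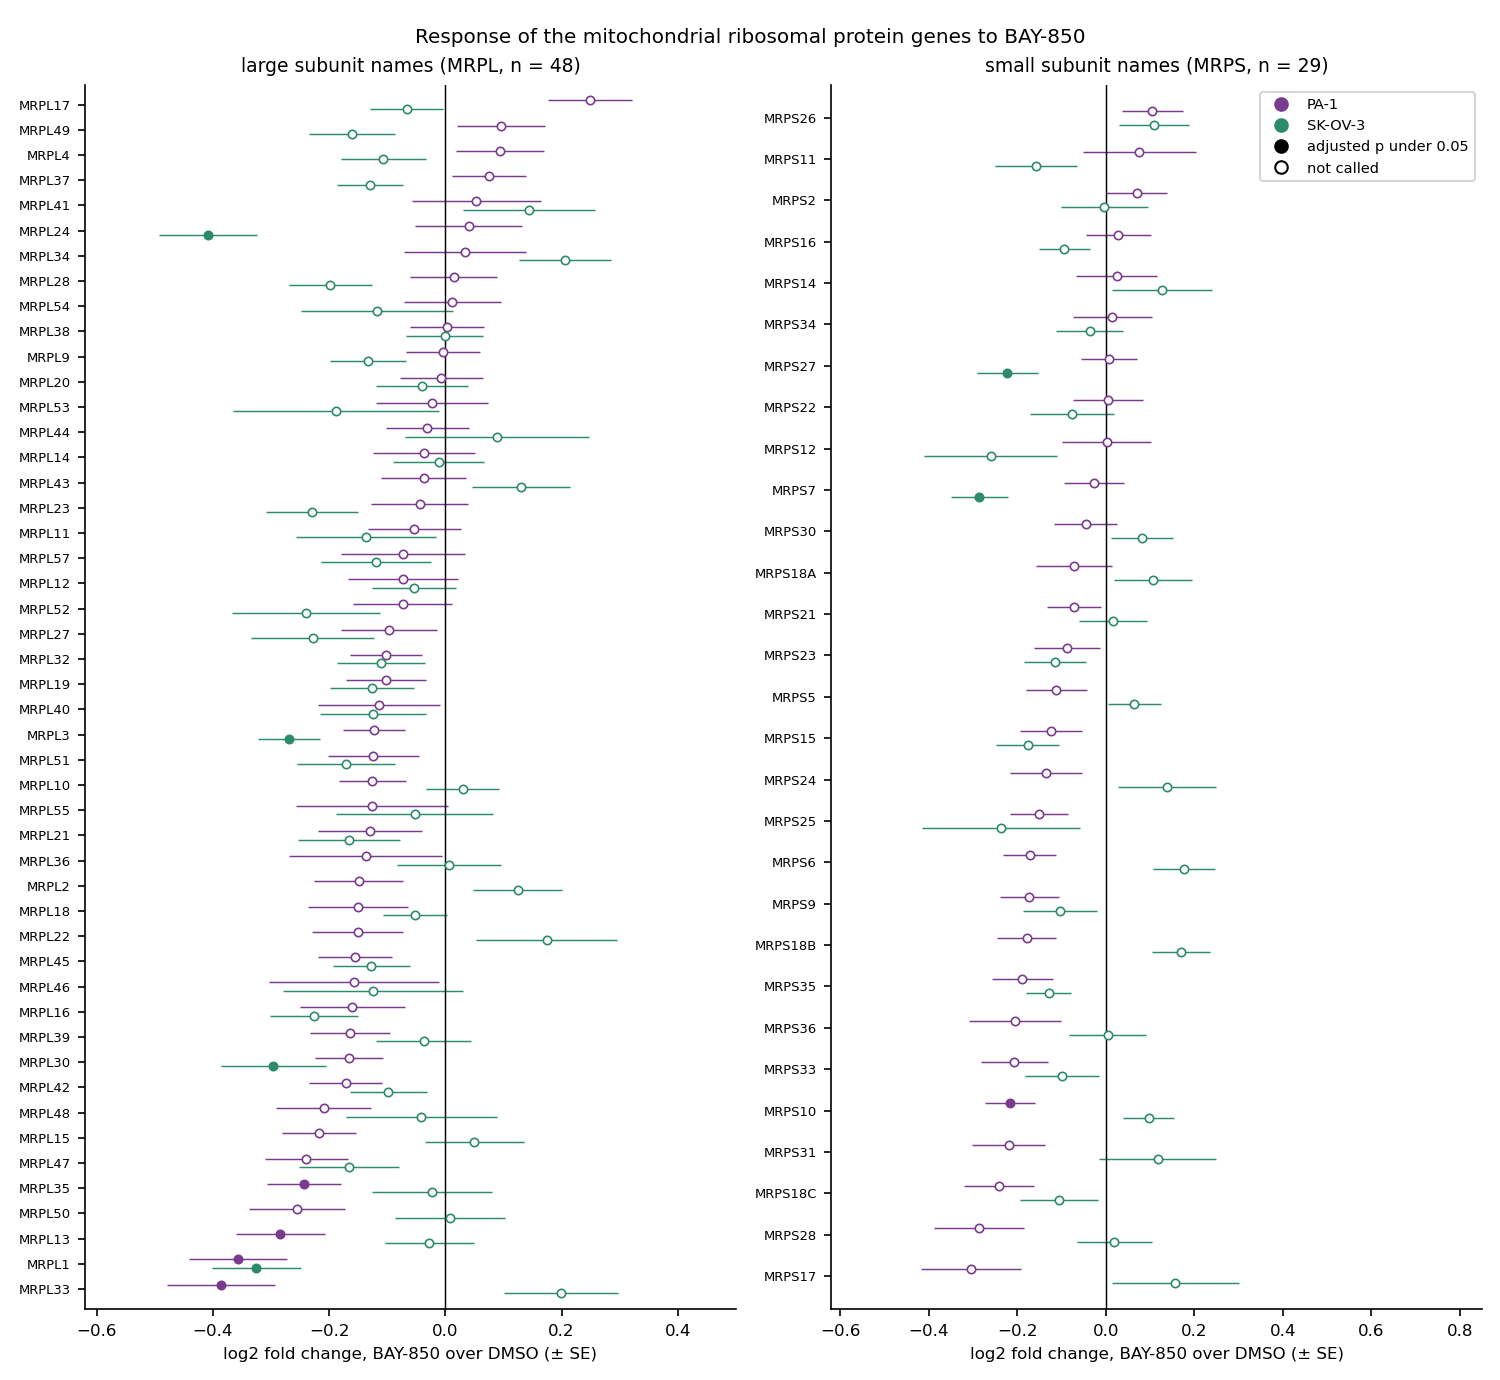
Log2 fold change with BAY-850 over DMSO (horizontal axis, ± SE) for each of the 48 MRPL genes (left) and 29 MRPS genes (right), ordered by the value in PA-1, with PA-1 in purple and SK-OV-3 in green, and filled points where the adjusted p was under 0.05. Only MRPL1 is filled in both colours, and no filled point lies to the right of 0.

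The 2 lines shared 1 called member. MRPL1 was lower in both, 4 members were called only in PA-1, 5 only in SK-OV-3 and 67 in neither. Lower calls in both lines were thus 1.3% of the members, against 0.152% of the 13861 genes tested in both lines (21 genes); the 1 shared member was 20% of those lower in PA-1 and 16.7% of those lower in SK-OV-3, against 5.79% and 1.56% over all genes. With 1 shared member these shares are a description, and a call in one line alone does not show a difference between the lines. MRPL1, MRPL3, MRPL30, MRPL47 and MRPS35 are listed in a pathway result of the study that was drawn from these same samples, so their direction here is not independent evidence. MRPL47 and MRPS35 (mS35) were called in neither line, MRPL47 at -0.24 in PA-1 and -0.17 in SK-OV-3 and MRPS35 at -0.19 and -0.13 (log2 fold changes). Among the members higher in both lines, MRPS26 (mS26) ranked first by the larger of its 2 p-values. It lay at 0.11 ± 0.069 in PA-1 and at 0.11 ± 0.079 in SK-OV-3 (log2 fold change ± SE) and passed in neither (adjusted p = 0.386 and 0.374).

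**Figure D3:**
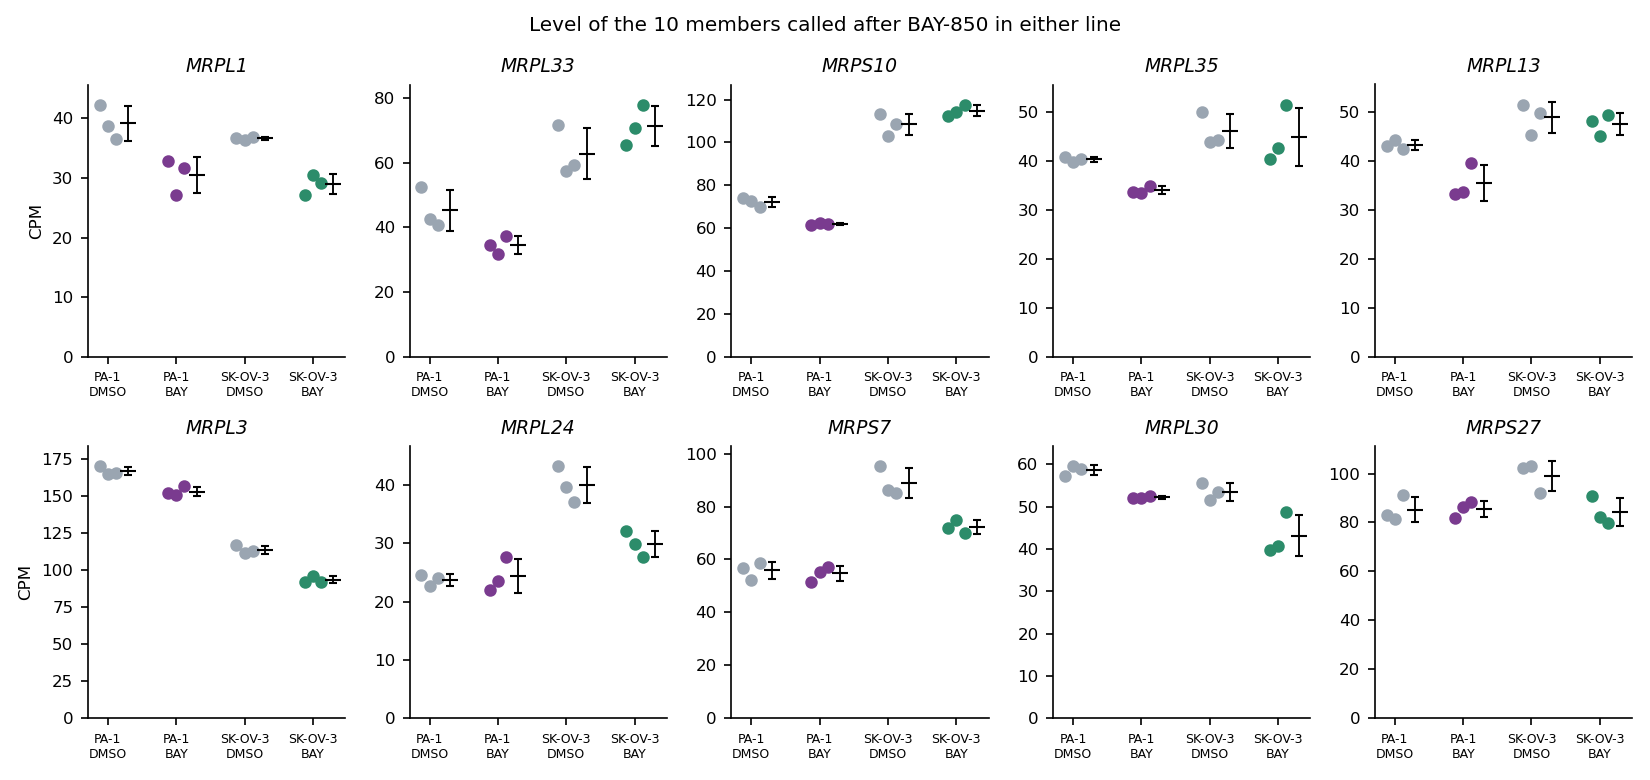
Level in CPM (vertical axis, from 0) of the 10 members called after BAY-850 in either line, in the 12 libraries (points) of the 4 groups, with the mean ± SD (n = 3) beside each group. The upper 5 panels are the members called in PA-1 and the lower 5 those called in SK-OV-3 alone; the 2 groups of MRPL1 are apart in both lines, while those of MRPL33 and MRPS10 overlap in SK-OV-3 and those of MRPL24 and MRPS7 overlap in PA-1.

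The response to BAY-850 differed between the lines for 6 members in a fit of all 12 libraries (16830 genes tested). In 4 the response of SK-OV-3 lay above that of PA-1 (5.19% of the members, against 6.7% of all genes) and in 2 it lay below (2.6%, against 7.77%). The differences are given as the log2 fold change in SK-OV-3 minus that in PA-1. Of the 4 above, MRPS10 had a difference of 0.30 ± 0.074 (adjusted p = 0.0124) and was at 113, 103 and 109 CPM under DMSO in SK-OV-3 and 112, 114 and 118 CPM with BAY-850. MRPL33 had a difference of 0.57 ± 0.15 (adjusted p = 0.0186), with 71.7, 57.5 and 59.2 CPM under DMSO in SK-OV-3 and 65.6, 70.6 and 77.9 CPM with BAY-850. In both genes the SK-OV-3 groups overlapped while the PA-1 groups did not.

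MRPS6 and MRPS18B (mS40, a paralog of the bS18 family) had differences of 0.34 ± 0.089 (adjusted p = 0.019) and 0.34 ± 0.092 (adjusted p = 0.0223). MRPS6 was at 118, 105 and 108 CPM in the PA-1 DMSO libraries and 97.1, 96.8 and 99.6 CPM in the treated ones, and in SK-OV-3 at 124, 113 and 107 CPM and 123, 128 and 134 CPM, where the groups overlapped. MRPS18B was at 69.4, 63.8 and 59.4 CPM under DMSO in PA-1 and 54.8, 57.1 and 58.1 CPM with BAY-850, whereas in SK-OV-3 it was at 58.9, 58.7 and 61.6 CPM and 66.5, 63.5 and 69.6 CPM. Its BAY-850 libraries thus all lay below DMSO in PA-1 and above DMSO in SK-OV-3, though neither line alone passed (adjusted p = 0.119 and 0.0935). MRPL24 had a difference of -0.46 ± 0.13 (adjusted p = 0.0301) and MRPL17 one of -0.33 ± 0.097 (adjusted p = 0.0332). Both belong to the 6 members that line the polypeptide exit. Of these 6, 3 had a negative and 3 a positive difference, up to 0.31 for MRPL22 (not called), so the group had no common direction. In PA-1 MRPL24 was at 24.6, 22.7 and 24.1 CPM under DMSO and 22.0, 23.5 and 27.7 CPM with BAY-850, groups that overlapped. Over all genes, leaving out 1 library gave 826 to 1287 higher and 960 to 1320 lower differences. Of the 6 members, MRPS10 alone was called in every leave-one-out fit. The count of higher differences was 1 without PA-1 DMSO replicate 1 or SK-OV-3 DMSO replicate 2, 2 without SK-OV-3 DMSO replicate 3, and at most 6 (without SK-OV-3 DMSO replicate 1), and the count of lower differences was 0 without PA-1 DMSO replicate 2, PA-1 BAY-850 replicate 3, SK-OV-3 DMSO replicate 1 or SK-OV-3 BAY-850 replicate 2 and 1 without PA-1 DMSO replicate 3, SK-OV-3 DMSO replicate 2, SK-OV-3 DMSO replicate 3 or SK-OV-3 BAY-850 replicate 1.

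The parts of the ribosome were looked at by their known place in it. Of all genes tested 50.4% were negative in PA-1 and 51.2% in SK-OV-3, and 2.48% and 9.56% were called lower. The groups are small, so their counts are a description. The 8 members of the small subunit head had a median log2 fold change of -0.18 in PA-1, with 7 of 8 negative and 1 called (MRPS10), and of -0.0011 in SK-OV-3, with 4 of 8 negative and 1 called (MRPS7). The 7 members of the central protuberance had medians of -0.11 and -0.12, and 0 were called in either line by any of the 4 tools (1 was lower in PA-1 and 0 in SK-OV-3 at an unadjusted p under 0.05 in the quasi-likelihood test). The 4 members of the peptidyl transferase core had medians of -0.14 and -0.17, with MRPL3 called in SK-OV-3. The 5 members of the stalk that recruits translation factors, and its base, had medians of -0.05 and -0.12 with 0 called in either line by any of the 4 tools, and 1 and 0 at an unadjusted p under 0.05 in the quasi-likelihood test. No test of one group against another was made.

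The summed level of the members gave the balance of the subunits' transcripts. The MRPL sum was 2290 ± 113 CPM in the PA-1 DMSO group and 2150.0 ± 104 CPM in the treated one (SD, n = 3), and the libraries of the 2 groups overlapped. In SK-OV-3 it was 2286 ± 125 CPM and 2132 ± 27.0 CPM, and all BAY-850 libraries (2108 to 2161 CPM) lay below the DMSO libraries (2211 to 2430 CPM). The MRPS sum was 1448 ± 62.4 and 1350.0 ± 55.2 CPM in PA-1 and 1629 ± 90.4 and 1583 ± 21.2 CPM in SK-OV-3. In PA-1 the libraries with the largest sums in each group, DMSO replicate 1 and BAY-850 replicate 3, were also those with the most ribosomal RNA (14.1 and 16.9% of counts), as was DMSO replicate 1 in SK-OV-3 (15%). In the SK-OV-3 BAY-850 group the library with the largest sums, replicate 2, had the least (10.63%). As a share of the counts without ribosomal RNA genes, the members took 0.4083 to 0.4375% under DMSO in PA-1. With BAY-850 they took 0.3784 to 0.4061%, so on this scale the PA-1 groups did not overlap. In SK-OV-3 the shares were 0.436 to 0.4785% and 0.4254 to 0.4348%. DMSO replicate 1 in both lines and PA-1 BAY-850 replicate 3 still had the largest share of their group. The part of ribosomal RNA in these sums was not tested.

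The ratio of the 2 sums does not depend on how the libraries are scaled. In PA-1 it was 1.59, 1.586 and 1.567 under DMSO and 1.594, 1.579 and 1.605 with BAY-850, so the groups overlapped. In SK-OV-3 it was 1.402, 1.395 and 1.411 under DMSO and 1.323, 1.352 and 1.364 with BAY-850, so every BAY-850 library lay below every DMSO library, while all 6 lay below the PA-1 libraries. With the 50 large and 26 small subunit members counted by their place in the structure, the SK-OV-3 ratio was 1.57 to 1.573 under DMSO and 1.498 to 1.541 with BAY-850. Leaving out the 6 members called in SK-OV-3, the ratio was still 1.414 to 1.418 under DMSO and 1.34 to 1.368 with BAY-850. The 4 called MRPL genes made up 31.5% of the fall in the MRPL sum in SK-OV-3, MRPL3 alone 13.1%. These ratios are sums chosen over the members and carry no p-value.

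**Figure D4:**
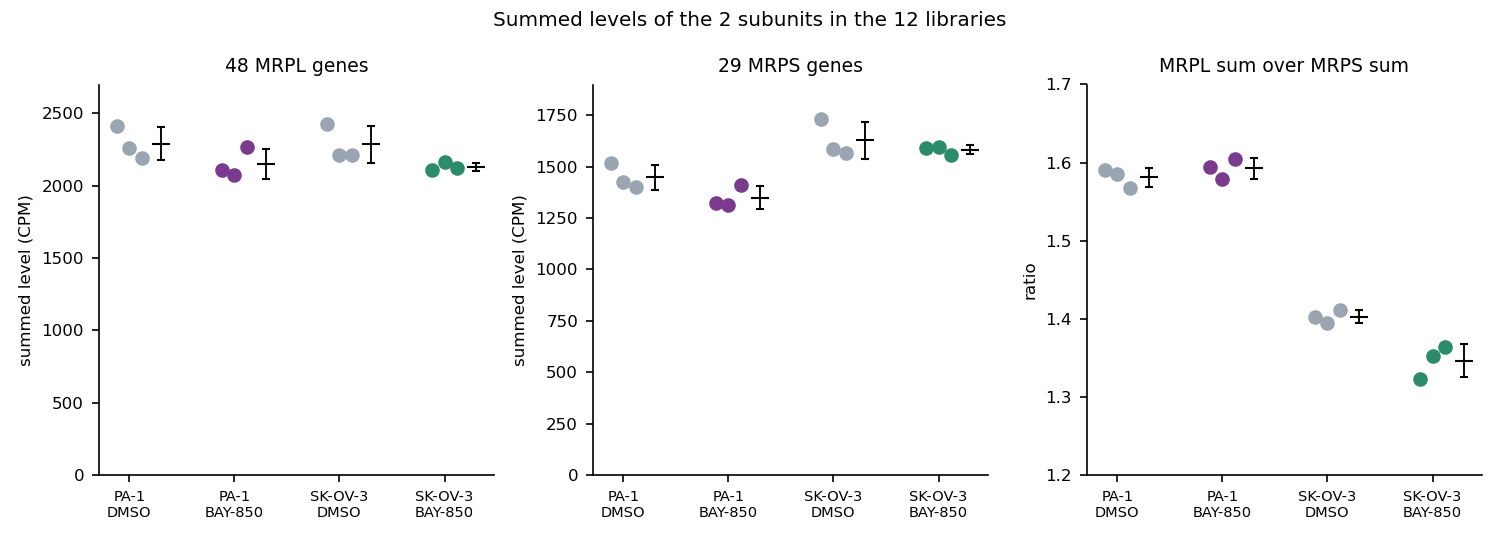
Summed level in CPM of the 48 MRPL genes (left) and the 29 MRPS genes (middle), and the ratio of the sums (right, axis from 1.2 to 1.7), in the 12 libraries (points), with the mean ± SD (n = 3) beside each group. The ratio separates the lines, at least 1.567 in PA-1 and at most 1.411 in SK-OV-3, and in SK-OV-3 the BAY-850 libraries lie below the DMSO libraries.

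The lines themselves differed far more than the groups within a line. Under DMSO 55 of the 77 members differed between SK-OV-3 and PA-1, 31 higher in SK-OV-3 (40.3%, against 40.1% of the 16070 genes tested) and 24 lower (31.2%, against 40.2%). With the length trend removed the counts were 40 higher and 20 lower and the median was 0.1835. Over all 15565 genes tested in that fit, 6508 were higher and 6267 lower, with a median of 0.0193. In the fit without that step the median log2 difference was 0.05 and the quartiles lay at -0.32 and 0.47. The medians of the MRPL and MRPS genes were 0.04 and 0.05. By levels that did not overlap, 30 members were higher and 24 lower (41.1% and 41.2% of all genes). Cytosolic ribosomal protein genes had a median of -1.04, with 78 of 84 called lower and 4 higher, and respiratory chain subunit genes had -0.08, with 31 lower and 19 higher of 76. These sets were not tested against one another.

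The members higher in SK-OV-3 included MRPL18 (uL18m), in the central protuberance, and MRPS35, in the small subunit head. MRPL18 was at 41.9, 40.6 and 32.6 CPM in PA-1 and 107, 103 and 102 CPM in SK-OV-3, a log2 difference of 1.43 ± 0.086 (SE, n = 3 in each group; adjusted p = 6.19e-09). MRPS35 was at 66.8, 57.7 and 61.3 CPM in PA-1 and 136, 134 and 130 CPM in SK-OV-3, a log2 difference of 1.10 ± 0.064 (adjusted p = 4.71e-09). For both genes the lowest SK-OV-3 library was far above the highest PA-1 library. MRPS15, MRPL49 (mL49) and MRPS23 (mS23) were next by p-value, with log2 differences of 0.99, 0.88 and 0.86 and adjusted p-values from 4.48e-08 to 2.3e-07. The counts of MRPL49 were not whole in any library, and it overlaps FAU on the other strand.

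The members lower in SK-OV-3 were led by MRPL42 (mL42) and MRPS25. MRPL42 was at 131, 137 and 121 CPM in PA-1 and 65.01, 65.7 and 66.6 CPM in SK-OV-3, a log2 difference of -0.98 ± 0.061 (adjusted p = 8.6e-09). MRPS25 was at 42.2, 42.0 and 39.0 CPM in PA-1 and 19.0, 16.1 and 18.9 CPM in SK-OV-3, a log2 difference of -1.19 ± 0.087 (adjusted p = 4.49e-08). MRPL10 (uL10m), the base on which the stalk protein MRPL12 is held, had a log2 difference of -0.81, whereas MRPL12 itself had 0.48. Genes for neighbouring proteins thus differed in opposite directions. MRPL32 (bL32m) and MRPS9 (uS9m), a head protein near the tRNA, had log2 differences of -0.83 and -0.96. The counts of MRPS25 and MRPS9 were not whole in 91.67% and 83.33% of the libraries, so part of their reads may be shared with other genes. Of the 8 head members 5 were lower and 3 higher in SK-OV-3, with a median of -0.52, and of the 7 in the central protuberance 3 were called, all higher (MRPL18, MRPL38 and MRPL40). Of all genes tested 40.2% were called lower and 40.1% higher.

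**Figure D5:**
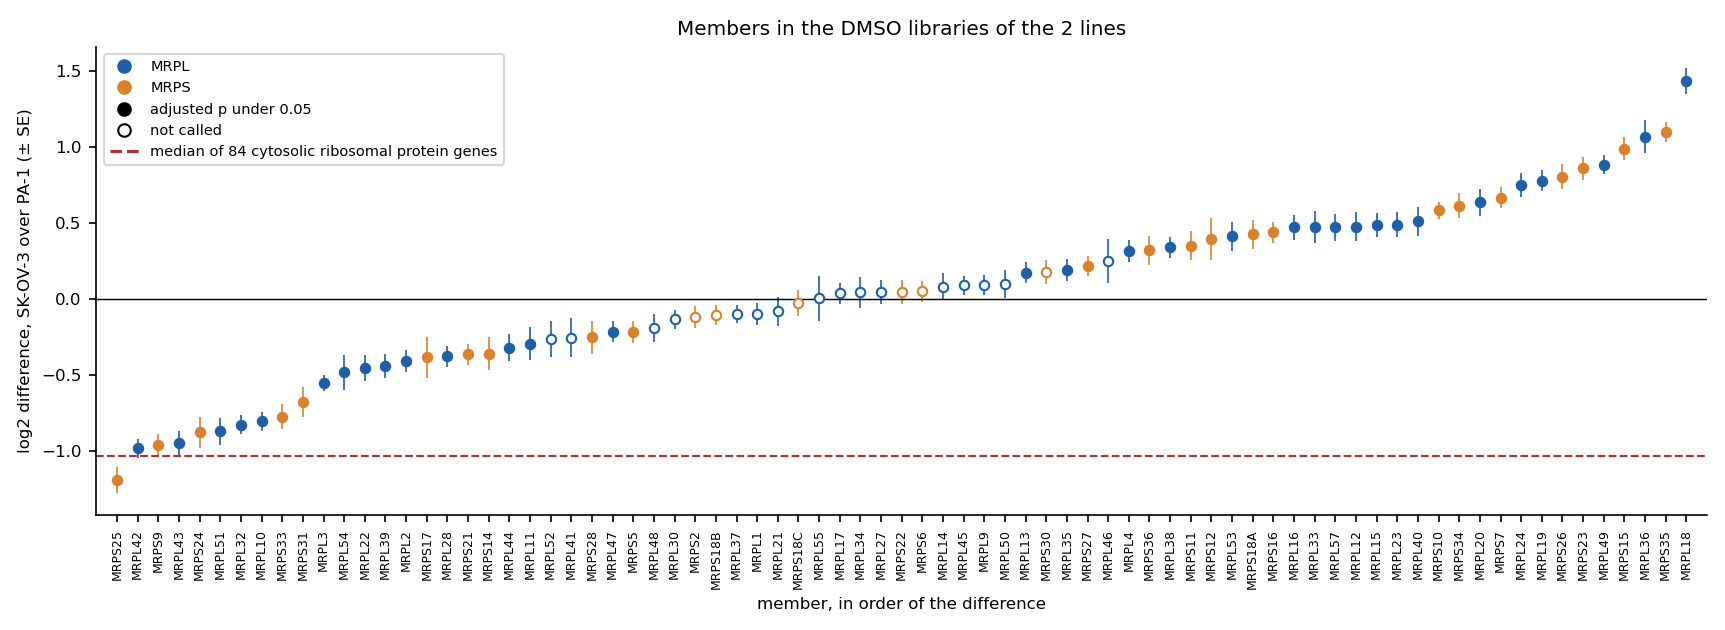
Log2 difference between SK-OV-3 and PA-1 under DMSO (vertical axis, ± SE, n = 3 in each group) of the 77 members in order of the difference, MRPL in blue and MRPS in orange, filled where the adjusted p was under 0.05. The members spread from -1.19 (MRPS25) to 1.43 (MRPL18) about a median of 0.05, while the dashed line marks the median of 84 cytosolic ribosomal protein genes at -1.04.

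Other genes that build or use the mitochondrial ribosome were read against the shares of all genes called, 4.65% higher and 2.48% lower in PA-1 and 10.8% and 9.56% in SK-OV-3. Of 7 subunits and partners under other names (such as DAP3 and PTCD3 of the small subunit and ICT1 of the large) 0 were called in either line by any of the 4 tools, and at an unadjusted p under 0.05 0 moved in PA-1 and 1 was lower in SK-OV-3. Of 24 assembly factors 2 (8.33%) were lower in PA-1, the GTPase GTPBP10 (-0.26 ± 0.074, adjusted p = 0.0461) and MTERF3 (-0.29 ± 0.073, adjusted p = 0.0286). In SK-OV-3 1 was called in each direction (4.17%), with the GTPase NOA1 higher (0.31 ± 0.083, adjusted p = 0.0219) and MTERF4 lower (-0.36 ± 0.098, adjusted p = 0.0243). Of 14 translation factors 0 were called in PA-1 by any of the 4 tools, with 5 lower at an unadjusted p under 0.05 in the quasi-likelihood test, and 1 (7.14%) was higher in SK-OV-3, the release factor C12orf65 (0.49 ± 0.11, adjusted p = 0.00962).

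Of 19 genes of mitochondrial transcription and RNA maturation 1 (5.26%) was called in each line. POLRMT, the mitochondrial RNA polymerase, was higher in PA-1 (0.33 ± 0.059, adjusted p = 0.00373) and PNPT1, the polynucleotide phosphorylase, in SK-OV-3 (0.25 ± 0.070, adjusted p = 0.0282). No other gene of that list was called in either line by edgeR's quasi-likelihood test. The median log2 fold changes of the 4 lists lay between -0.09 and -0.02 in PA-1 and between -0.11 and -0.0056 in SK-OV-3. Between the lines under DMSO, 15 of the 24 assembly factors were lower in SK-OV-3 (62.5%, against 40.2% of all genes) and 7 were higher, with a median of -0.46. C1QBP, a matrix protein that binds the ribosome's RNA, had the largest fall, with a log2 difference of -1.90 ± 0.0695 (adjusted p = 5.21e-11). The transcripts of mitochondrial DNA, the ribosome's own RNAs among them, were not analysed here.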

How the data were processed

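RNA-seq libraries of PA-1 and SK-OV-3 cells, 3 per group, were analysed from the deposited table of RSEM expected counts per gene. Per the labels, the authors aligned reads to hg38 with Bowtie2 2.1.0 and quantified them with RSEM 1.2.15. The labels name oligo-dT selection and the design text ribosomal RNA depletion; which was used, and the strand setting of the counting, could not be settled here. The estimated counts were rounded, filtered with filterByExpr, scaled by TMM and tested with edgeR 4.0.16 (quasi-likelihood; R 4.3.3) over all genes with Benjamini-Hochberg adjustment at 0.05. Each treatment comparison used the 6 libraries of its line, and the difference between lines used all 12. SE is the log2 fold change over the root of F. DESeq2 1.42.0, limma 3.58.1 and other settings were alternatives. P-values measure the spread between these replicates. The scripts were tested on simulated data.

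The members and lists were chosen with earlier results of these data known. Members named in the text were those called in both lines, the 5 with the smallest p per comparison and direction, those called in the difference between lines, the 3 highest and 3 lowest per subunit per kb, 5 in the study's pathway table, examples of structural groups, and up to 4 called genes per list. Levels per kb used the median length of GENCODE 29 coding transcripts. Transcripts of mitochondrial DNA were not analysed here.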

Additional observations from a re-analysis of the deposited data

Results flagged for a closer look

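In 6 members the response to BAY-850 differed between SK-OV-3 and PA-1 by the test of the difference itself (edgeR's quasi-likelihood test over 12 libraries). The log2 fold change in SK-OV-3 lay above that in PA-1 by 0.3019 for MRPS10, by 0.5737 for MRPL33, by 0.3365 for MRPS6 and by 0.336 for MRPS18B. For MRPL24 the difference was -0.4586 and for MRPL17 it was -0.3278. Under 23 alternatives, the MRPS10 call held in all, whereas MRPL33, MRPS6 and MRPS18B lost theirs in 4 each (adjusted p up to 0.0555, 0.0566 and 0.0627), MRPL24 in 5 (up to 0.078) and MRPL17 in 9 (up to 0.0874). MRPL33 and MRPS6 overlap BABAM2 and SLC5A3 on the same strand, and the part of shared reads in these differences was not tested.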

How the results depend on the processing

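The 5 lower members in PA-1 became 3 with library size only, 9 with no filter, 9 with DESeq2, 8 with the likelihood ratio test, 2 with all 12 libraries in one fit, and 0 with the GC trend removed (21 lower at an unadjusted p under 0.05). Lower calls over all genes, 378 with the settings used above, were 231, 588, 667, 610, 214 and 130 in the same order. These fits tested 14765 to 20219 genes. One higher member, a count of 1, appeared with no filter, with at least 10 counts in every library, with DESeq2, with the likelihood ratio test and with the length trend removed. Over all genes 814 to 1038 were higher in these fits, against 707 with the settings used above. Leaving out 1 library gave 0 to 8 lower members, against 65 to 418 lower over all genes. In SK-OV-3, removing the length trend gave 1 higher and 12 lower, and leaving out 1 library gave 0 to 3 higher and 3 to 7 lower, with medians from -0.0956 to -0.0162. Over all genes, removing the length trend gave 1871 higher and 1798 lower. Leaving out 1 library gave 993 to 2050 higher and 788 to 1852 lower. In the difference between lines, lower calls numbered 1 with library size only and 6 with the length trend removed, against 773 and 1469 over all genes. Leaving out 1 library gave 1 to 6 higher and 0 to 2 lower, against 826 to 1287 and 960 to 1320 over all genes. Between the lines under DMSO, the calls were 40 higher and 20 lower and the median was 0.1835 with the length trend removed (0.0193 over all genes). The members called in a comparison and named for it, and the 5 of the pathway table after BAY-850, kept their direction in the alternatives run. The members' median in the difference between lines, 0.0164, turned to -0.0387 without PA-1 DMSO replicate 1, -0.0031 without SK-OV-3 BAY-850 replicate 2 and -0.0311 with the length trend removed. The share of higher among all calls in PA-1 was 65.2%, against 50.4% with library size only, 51.9% without ribosomal RNA genes and 76.9% with the GC trend removed; in the difference between lines it was 46.3%, against 57.9% with library size only, so that the balance turned. With the replicate number as a block, PA-1 had 3 lower members, SK-OV-3 6, and the difference between lines 2 higher and 1 lower. Over all genes that step gave 307 lower in PA-1, 1267 lower in SK-OV-3, and 896 higher and 1061 lower differences. The deviations of same-numbered libraries from their group means correlated at -0.048 to 0.0329, and those of differently numbered ones at -0.116 to 0.108. With 3 libraries per group this cannot settle whether the numbers pair the libraries. The causes of these shifts were not tested, and 3 libraries per group limit the small changes seen here.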

Other observations

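MRPL46 and MRPS11 lie head to head on chromosome 15, with their 5′ ends 33 bases apart (GRCh38, GENCODE 29); the next closest pair of members was 425662 bases apart. After BAY-850 the log2 fold changes were -0.16 for MRPL46 and 0.08 for MRPS11 in PA-1, and -0.12 and -0.16 in SK-OV-3, with neither gene called. Between the lines under DMSO, MRPS11 was higher in SK-OV-3 by 0.35 (adjusted p = 0.00461, edgeR), and MRPL46 had 0.25 and was not called.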
